A study of Mus musculus with 18 samples.

Results

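The 26 genes described here make cholesterol or control and handle it in the liver. They are the enzymes of sterol synthesis, the SREBP2 switch that turns these enzymes on, and 3 genes of sterol handling, and they were taken by symbol from a table of 54532 mouse genes, in which all 26 symbols were found. Livers of 18 male C57BL/6J mice were studied by RNA-seq, 6 normal control animals on standard chow (NC), 6 on a high-fat diet (HFD) and 6 on that diet that were given SZ-A, the alkaloids of the mulberry twig (Ramulus Mori). The mice were 6 weeks old on arrival, and diets ran for 14 weeks before treatment. Treatment then lasted 6 weeks by the study's methods and 8 weeks by its deposited design, with the high-fat diet continued. HFD mice on the intragastric arm received saline, and all mice were fasted overnight before euthanasia. The labels of the SZ-A mice give neither dose nor route, and the labels of all 3 groups carry the same strain with no transgene or deletion. The diet label of NC6 names high-fat diet against its title, and the mouse was kept in NC. Leaving it out is reported beside the calls below. Values are FPKM, fragments per kilobase of deposited gene length scaled to a library size. Levels can be compared between genes only as far as these lengths and overlaps with other genes allow. The library size was not the plain total of a mouse's fragments on genes. Divided by that total, it was lowest at 0.9325 (NC5) and highest at 1.0248 (NC6) among control mice. HFD mice spanned 0.9983 (HFD5) to 1.1414 (HFD1), and SZ-A mice 0.9718 (SZ-A4) to 1.0468 (SZ-A2). Results with FPKM scaled to a common total, or with plain library totals, are therefore also given below.

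Cholesterol is built from acetyl-CoA through mevalonate, isoprenoid units, squalene and lanosterol, and a last series of steps trims lanosterol to cholesterol. SREBP2, encoded by Srebf2, is a transcription factor held in the endoplasmic reticulum membrane with its escort SCAP. When membrane cholesterol is high, INSIG proteins retain the SCAP and SREBP2 complex. When it falls, the complex moves to the Golgi, SREBP2 is cut free and enters the nucleus, and genes of the whole pathway are transcribed, Insig1 among them. Insig2 is known in liver as an INSIG form that rises on fasting and is lowered by insulin. The comparisons ask how these genes stood on the high-fat diet and in mice that also received SZ-A.

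Promoter letters are shown because a sterol regulatory element and a CCAAT box are the classical neighbours in SREBP2 target promoters. In the RefSeq promoter table (GRCm38.p6), 22 of the 26 genes had a window, and Fdft1, Fdps, Sqle and Stard4 had none. The core letters TCACNCCA, searched on both strands of the 250 bases before the start, were found in 3 of 22 member genes (13.6%), Srebf2, Hmgcs1 and Msmo1, against 4.2% of 27025 genes. The letters CCAAT, also on both strands, stood in 20 of 22 member genes (90.9%) against 37.5% of 27025 genes, and Acat2 and Scap had none. A match is a description of letters and no binding was measured. Below, capitals mark TCACNCCA and CCAAT, each on either strand, for the 3 genes with the sterol core, for the INSIG pair and for Hsd17b7, the member with the smallest p-value between HFD and NC. Stretches stop before the gene of the deposited annotation, except the 30 bases of Msmo1, which lie inside it.
Srebf2 (chr15:82147092-82147180, + strand): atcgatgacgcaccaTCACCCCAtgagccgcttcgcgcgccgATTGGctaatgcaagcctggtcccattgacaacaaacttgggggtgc
Hmgcs1 (chr13:119690199-119690350, + strand): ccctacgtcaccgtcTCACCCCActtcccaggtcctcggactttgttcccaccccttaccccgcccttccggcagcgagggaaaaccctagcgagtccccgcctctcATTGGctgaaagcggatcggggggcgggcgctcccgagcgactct
Msmo1 (chr8:64733730-64733759, - strand): attcTCACTCCAtccgcgcagCCAATgact
Insig1 (chr5:28071181-28071355, + strand): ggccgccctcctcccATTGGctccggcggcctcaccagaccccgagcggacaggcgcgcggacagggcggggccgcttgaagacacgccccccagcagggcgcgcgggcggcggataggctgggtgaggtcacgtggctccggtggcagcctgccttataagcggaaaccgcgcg
Insig2 (chr1:121332590-121332740, - strand): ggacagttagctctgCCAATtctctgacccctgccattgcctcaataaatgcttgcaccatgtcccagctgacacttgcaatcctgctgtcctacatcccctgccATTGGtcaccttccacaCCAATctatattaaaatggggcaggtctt
Hsd17b7 (chr1:169969242-169969385, - strand): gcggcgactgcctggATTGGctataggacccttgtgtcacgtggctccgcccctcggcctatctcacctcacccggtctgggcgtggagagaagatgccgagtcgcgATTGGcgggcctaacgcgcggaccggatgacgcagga
The sterol core began 162 bases before the start in Srebf2, 137 in Hmgcs1 and 177 in Msmo1. Neither Insig gene carried these letters in its window, and the Insig2 stretch held 3 CCAAT boxes.

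Each mouse had 17163191 to 20493907 fragments on genes, and no pair of mice within a group agreed within sampling noise. A gene was tested when its mean over the 18 mice was at least 1 FPKM, which 25 of the 26 members and 10216 of all genes reached. It was called when limma's Benjamini-Hochberg adjusted p, taken over all tested genes, was under 0.05 and the fold change was over 1.2. Hepatocyte markers summed to 24600 to 59400 FPKM per mouse and pancreatic acinar markers to at most 0.851. Between HFD and NC, 5 of 8 hepatocyte markers were called lower, as were 9.49% of all genes. Called higher were 4 of 6 Kupffer cell and macrophage markers (121 to 242 FPKM summed in NC, 233 to 354 in HFD). The same held for 4 of 6 stellate cell markers (34.5 to 49.4 and 39.2 to 87.1) and for 10.7% of all genes. The adipocyte list summed to 0.0447 to 7.54 FPKM in NC and 20.1 to 135 in HFD, where nearly all of it was Cfd, with Adipoq at no more than 0.618 in any mouse. In SZ-A against HFD, 1 of 6 Kupffer cell and macrophage markers was called, lower, where 0.147% of all genes were called. Negative values were seen in 5 of these 6 and in 6 of 6 stellate cell markers, with 0 of the latter called. The median log2 fold changes of these lists were -0.39 and -0.40, against 0.03 for all genes. The adipocyte list summed to 1.02 to 31.1 FPKM in SZ-A. Of 8 hepatocyte markers, 8 had positive values in SZ-A against HFD, 4 with an unadjusted p under 0.05. Of 5 red blood cell markers, 4 had positive values, 3 with an unadjusted p under 0.05, and none of either list was called. Among all genes, 56.2% were positive and 8.74% were higher at that p. The red blood cell list summed to 151 to 310 FPKM in HFD and 235 to 471 in SZ-A, and SZ-A4 had the highest sum of all 18 mice. The part of these cells in the sterol gene differences was not tested. In whole liver, fewer cells of a type and less RNA per cell cannot be told apart.

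Levels along the pathway differed widely between steps. Insig2 had the highest FPKM in NC (220 ± 137, mean ± SD, n = 6), followed by Ebp (66.1 ± 7.10), the isomerase that shifts a sterol double bond, Sc5d (36.7 ± 9.11), the late desaturase, and Tmem97 (35.2 ± 4.63), a sterol binding membrane protein. The lowest tested enzymes in NC were Mvd at 1.38 ± 0.703, Lss at 1.40 ± 0.409 and Ggps1 at 1.78 ± 0.290. Mvd lies wholly inside a gene on the other strand, so its level is uncertain. Lss has the longest deposited gene length of the members, 10787 bases, by which its fragments were divided. Fdps, farnesyl diphosphate synthase, was measured at 0 to 0.92 FPKM (0 to 70 fragments) and was not tested. It is overlapped on the same strand over 89.7% of its length by another annotated gene, so fragments of this step may have been left uncounted and its level is uncertain.

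**Figure D1:**
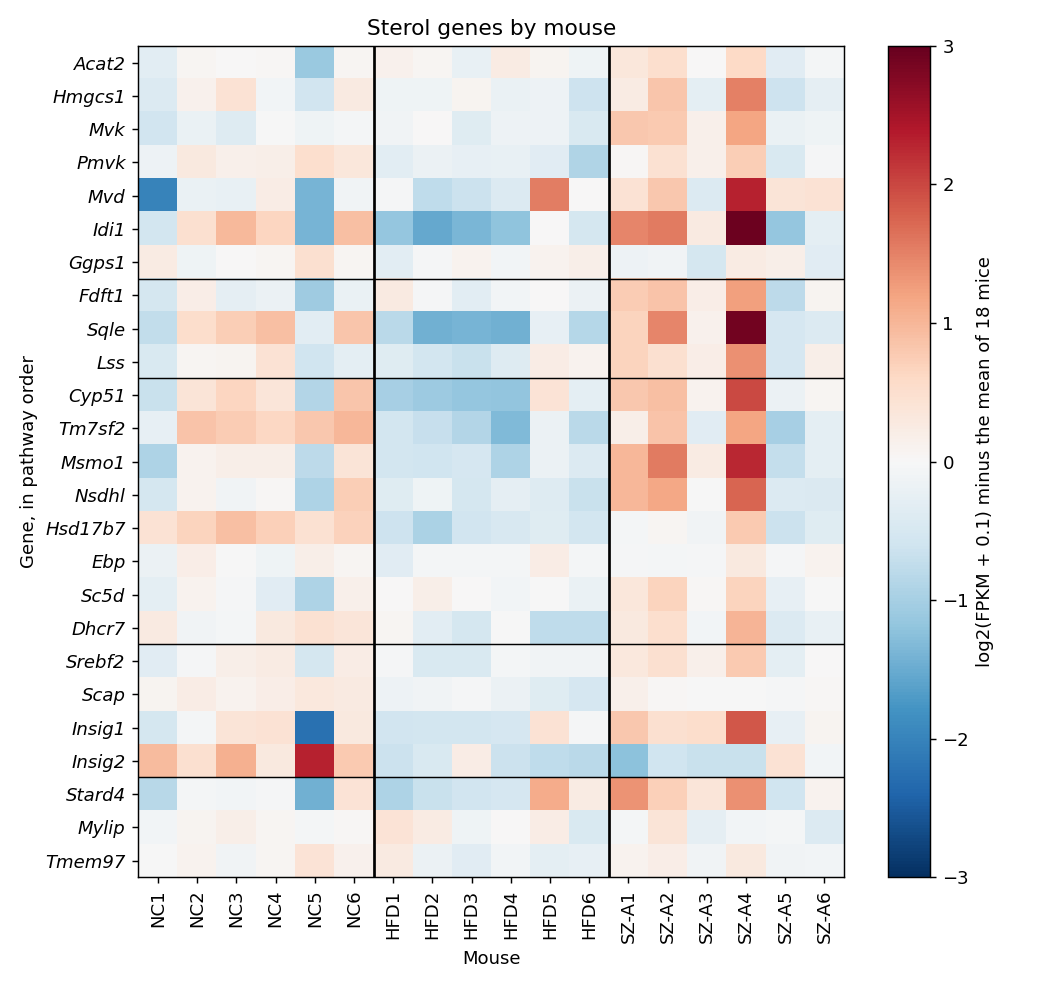
The 25 tested genes (rows, in pathway order, lines between roles) in the 18 mice (columns, lines between groups). Colour is log2(FPKM + 0.1) minus the gene's mean over the 18 mice. SZ-A4 was the highest of all 18 mice in 18 of 25 genes, and SZ-A5 was the lowest SZ-A mouse in 18 of 25.

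On the high-fat diet, 7 of the 25 tested members were called against NC and all 7 were lower, against a background of 20.2% of all tested genes called in either direction and 9.49% called lower. They were Pmvk in the mevalonate pathway, Sqle at the squalene step, Tm7sf2, Hsd17b7 and Dhcr7 among the late enzymes, and Scap and Insig2 in the SREBP2 switch. The groups did not overlap for Pmvk, Hsd17b7, Scap and Insig2, 4 of 25 members, where 4.97% of all genes separated with HFD lower. The same 7 were called without NC6, and no member was called higher. An unadjusted p under 0.05 was reached by 10 members, all lower, against 18.3% of all genes lower at that p. Positive values were seen in 7 of 25 members and in 45.1% of all genes, and the median log2 fold change was -0.16 for the members and -0.03 for all tested genes. Without NC5 the median of the members was -0.27, and with limma sample weights it was -0.36. With FPKM scaled to a common total it was 0.0305, and with voom on plain library totals -0.0067, as the median of all genes moved to 0.15 and 0.12.

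Hsd17b7, the ketosteroid reductase of the demethylation complex, had 14.3 FPKM in the lowest NC mouse, 17.0 at the median and 19.9 in the highest. In HFD mice it had 5.41, 7.14 and 8.27, so every HFD mouse lay below every NC mouse. The log2 fold change was -1.23 (SE 0.11, limma adjusted p = 2.78e-05), a 2.35-fold lower level. Tm7sf2, a sterol reductase acting after Cyp51, had 9.28, 19.0 and 22.1 FPKM in NC and 4.35, 6.46 and 9.71 in HFD as lowest, median and highest, with a log2 fold change of -1.37 (SE 0.21, limma adjusted p = 0.000855). The groups overlapped only because NC1 (9.28) was below HFD5 (9.71). Tm7sf2 is overlapped on its own strand over up to 65.1% of its length by Vps51 and Gm28374, both listed at a mean of at most 0.148 FPKM, so its counts are uncertain in level. Dhcr7, the last reductase before cholesterol, fell from 4.58 to 3.06 FPKM (log2 fold change -0.59, SE 0.16, limma adjusted p = 0.0200).

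Sqle, squalene epoxidase and a rate-controlling step, had 0.892, 2.45 and 2.96 FPKM in NC and 0.502, 0.671 and 1.28 in HFD. NC1 and NC5 lay within the HFD range and the other 4 NC mice above it. Its log2 fold change was -1.35 (SE 0.31, limma adjusted p = 0.00799). Pmvk, phosphomevalonate kinase, had 6.51, 8.53 and 10.2 FPKM in NC and 3.80, 5.91 and 6.33 in HFD without overlap (log2 fold change -0.59, SE 0.13, limma adjusted p = 0.00774). The HFD6 value of 3.80 stood apart from the other HFD mice, and without it Pmvk was still called.

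Idi1, the isomerase of the isoprenoid unit, and Cyp51, the lanosterol demethylase, were lower on average in HFD but not called. Idi1 had 3.49 ± 1.76 FPKM in NC and 1.41 ± 0.699 in HFD (log2 fold change -1.14, SE 0.40, limma adjusted p = 0.0589), and was called without NC1 (adjusted p = 0.0489), NC5 (0.00727) or HFD5 (0.0329). Cyp51 had 9.18 ± 3.90 and 5.15 ± 2.79 FPKM (log2 fold change -0.83, SE 0.34, limma adjusted p = 0.105), and was called without NC5 (adjusted p = 0.0403) or HFD5 (0.0315). With limma sample weights Idi1, Cyp51 and Msmo1 were called (limma adjusted p = 0.00101, 0.00369 and 0.0203), where 26.1% of all genes were called. In both genes NC1 and NC5 were the lowest NC mice and HFD5 the highest HFD mouse. The 11 other tested enzymes that were not called gave log2 fold changes on both sides of 0, from -0.38 for Msmo1 to 0.57 for Mvd.

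In the SREBP2 switch, Insig2 and Scap fell on the high-fat diet, while Srebf2 and Insig1 were not called. Insig2 had 121, 182 and 491 FPKM in NC and 56.2, 63.2 and 116 in HFD, with every HFD mouse below every NC mouse (log2 fold change -1.50, SE 0.29, limma adjusted p = 0.00325). Its highest NC value belonged to NC5 and its highest HFD value to HFD3. Scap had 16.5, 18.1 and 19.5 FPKM in NC and 11.1, 14.0 and 15.3 in HFD, again without overlap (log2 fold change -0.42, SE 0.09, limma adjusted p = 0.00485). The Scap and Dhcr7 calls were lost when each mouse's FPKM were scaled to the same total (limma adjusted p = 0.129 and 0.121), a scaling that moved the median of all genes from -0.03 to 0.15. Positive values then numbered 13 of 25, and 17 of 25 members were below the median of all genes under either scaling. The Scap and Dhcr7 calls were also lost with voom on plain library totals (limma adjusted p = 0.0599 and 0.069). That of Dhcr7 was lost as well when low genes were kept (limma adjusted p = 0.0595).

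Srebf2 had 6.77 ± 1.45 FPKM in NC and 5.98 ± 0.795 in HFD (log2 fold change -0.16, SE 0.14, limma adjusted p = 0.468). Insig1 had 22.6 ± 10.4 and 19.8 ± 6.48 FPKM (log2 fold change -0.02, SE 0.39, limma adjusted p = 0.984), a difference too imprecise to tell a rise from a fall. Of the sterol handling genes, the sterol carrier Stard4, the lipoprotein receptor ligase Mylip and Tmem97 had log2 fold changes of 0.12, 0.01 and -0.25, and none was called, although Tmem97 was called without HFD1 (limma adjusted p = 0.0358).

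**Figure D2:**
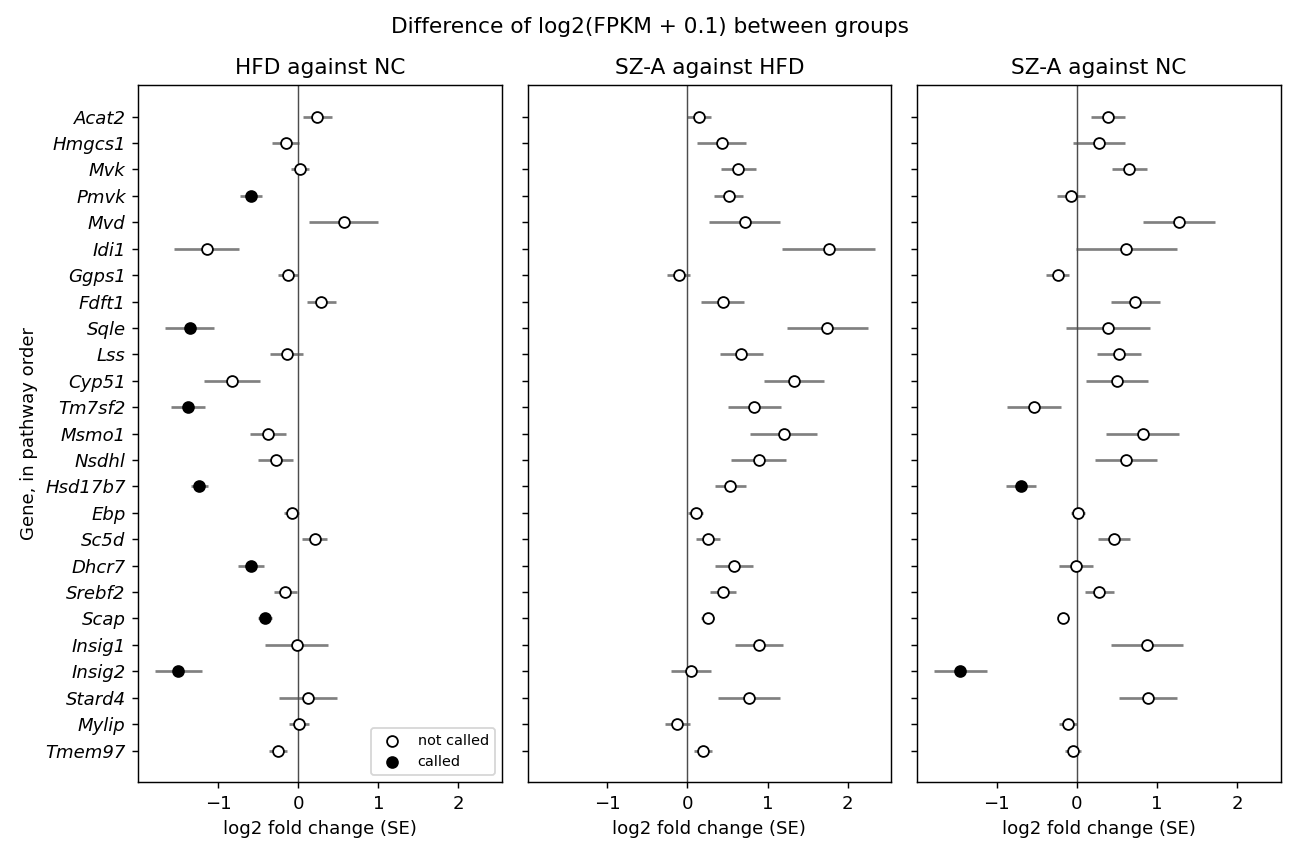
Log2 fold change (difference of mean log2(FPKM + 0.1), bars are SE, 6 mice per group) of the 25 tested genes in 3 comparisons. Filled points were called (adjusted p under 0.05 and fold over 1.2). Filled points number 7 in HFD against NC, 0 in SZ-A against HFD and 2 in SZ-A against NC.

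In SZ-A mice, no member was called against HFD mice by limma, where 0.147% of all tested genes were called. Of the 25 tested members, 23 had a positive log2 fold change against 56.2% of all genes. An unadjusted p under 0.05 was reached by 14 of 25, all higher in SZ-A, against 8.74% of all genes higher at that p. The median log2 fold change was 0.54 for the members and 0.03 for all genes. None of the 25 separated the groups fully, as 1.28% of all genes did, and adjusted p ran from 0.139 to 0.957. With each mouse's FPKM scaled to the same total, which moved the median of all genes to -0.15, 20 of 25 were positive, 5 were higher (Idi1, Sqle, Cyp51, Msmo1 and Insig1) and 1 lower (Ggps1) at an unadjusted p under 0.05, and 23 of 25 stood above that median, as they did without the scaling. With limma sample weights 1 of 25 members, Cyp51, was called (limma adjusted p = 0.0462), where 2.28% of all genes were called.

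The largest differences lay at Idi1, Sqle, Cyp51 and Msmo1, a methyl oxidase of the late pathway. Idi1 had 0.844, 1.10 and 2.66 FPKM in HFD and 1.13, 5.32 and 20.8 in SZ-A as lowest, median and highest (log2 fold change 1.76, SE 0.57, limma adjusted p = 0.184). SZ-A1, SZ-A2, SZ-A3 and SZ-A4 were above every HFD mouse, and SZ-A5 and SZ-A6 were within the HFD range. Sqle had 0.502, 0.671 and 1.28 FPKM in HFD and 1.06, 2.10 and 12.2 in SZ-A (log2 fold change 1.74, SE 0.50, limma adjusted p = 0.148). All 6 SZ-A mice were above the HFD mean and 4 were above every HFD mouse.

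Cyp51 had 3.38, 3.71 and 10.4 FPKM in HFD and 6.88, 11.0 and 30.8 in SZ-A (log2 fold change 1.33, SE 0.37, limma adjusted p = 0.139). All 6 SZ-A mice exceeded the HFD mean, and HFD5 (10.4) and HFD6 (6.36) were the highest of their group. Msmo1 had 2.67, 3.53 and 4.51 FPKM in HFD and 3.09, 8.26 and 24.8 in SZ-A (log2 fold change 1.2, SE 0.42, limma adjusted p = 0.207), with SZ-A1 to SZ-A4 above every HFD mouse.

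Among the other late enzymes, Nsdhl, a sterol decarboxylase, stood at 4.79 ± 3.04 FPKM in SZ-A and 2.15 ± 0.295 in HFD (log2 fold change 0.89, SE 0.34, limma adjusted p = 0.245). Tm7sf2 stood at 13.4 and 6.74 FPKM (log2 fold change 0.83, SE 0.33), Dhcr7 at 4.76 and 3.06 (0.58, SE 0.24) and Hsd17b7 at 10.7 and 7.05 (0.54, SE 0.19), with adjusted p of 0.217 to 0.273. Ebp and Sc5d, the most abundant of these enzymes, had the smallest differences, 0.10 (SE 0.09) and 0.26 (SE 0.15). In the mevalonate pathway Mvd, Mvk and Pmvk, which phosphorylate and decarboxylate mevalonate, had log2 fold changes of 0.71, 0.63 and 0.52. Hmgcs1, which makes HMG-CoA and carries the sterol core shown above, had 9.21, 12.9 and 15.1 FPKM in HFD and 9.28, 14.4 and 41.3 in SZ-A (log2 fold change 0.43, SE 0.31, limma adjusted p = 0.552), with only SZ-A1, SZ-A2 and SZ-A4 above every HFD mouse. Acat2, the thiolase at the entry, had 0.15 (SE 0.15). Ggps1, which leads to geranylgeranyl and away from sterols, was the single enzyme with a negative value (-0.11, SE 0.14). At the squalene steps, Fdft1, squalene synthase, had 0.44 (SE 0.27) and Lss, lanosterol synthase, had 0.67 (SE 0.27). Fdft1 overlaps the abundant Ctsb on the other strand over 2.25% of its length, and without strand-marked reads their fragments there cannot be told apart. Mvd lies wholly inside Gm20388, a gene on the other strand listed at a mean of 0 FPKM. Without strand-marked reads, fragments of Mvd may have been left uncounted, and its level is uncertain.

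**Figure D3:**
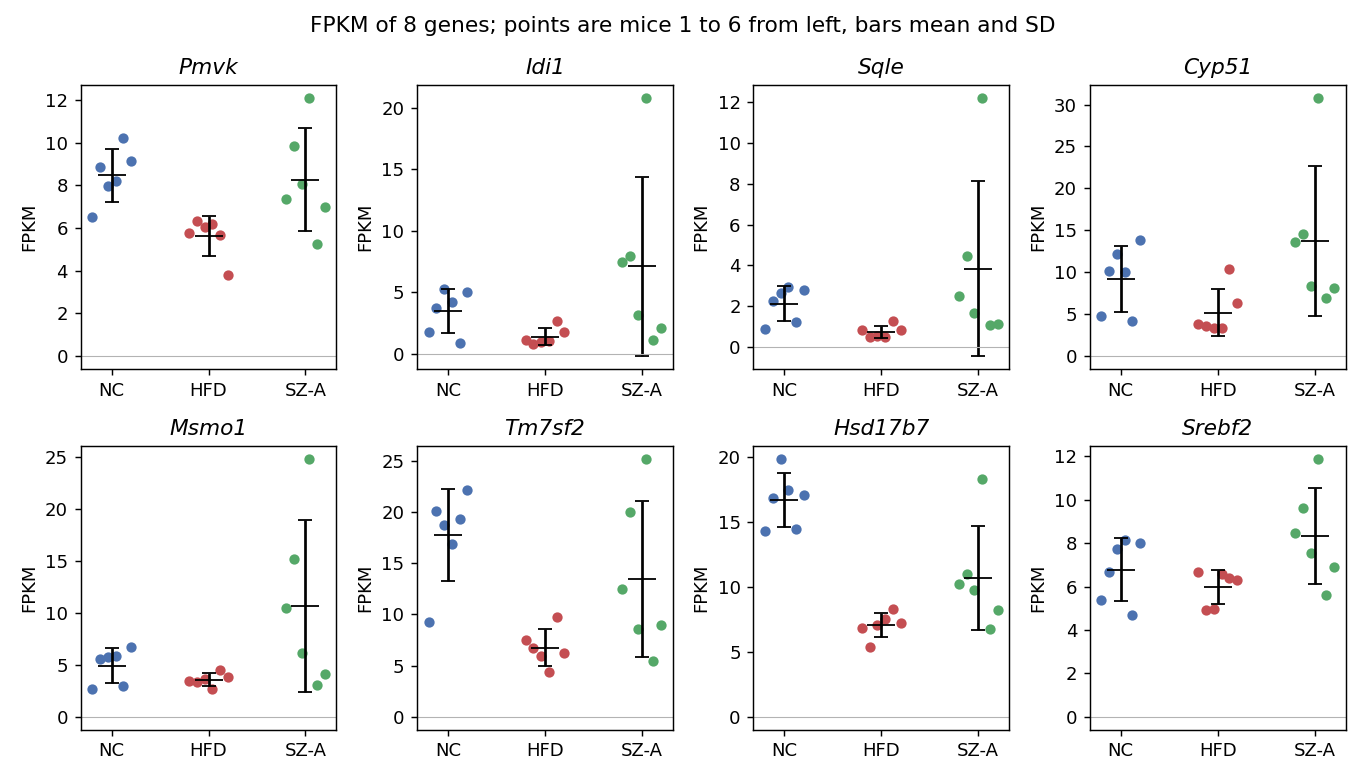
FPKM of 8 genes in each mouse (points, mice 1 to 6 from left to right within a group) with mean and SD. Hsd17b7 and Pmvk separate HFD from NC without overlap, and SZ-A4 is the highest SZ-A mouse in all 8 panels.

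Within the switch, Insig1 was 39.8 ± 23.5 FPKM in SZ-A and 19.8 ± 6.48 in HFD (log2 fold change 0.89, SE 0.30, limma adjusted p = 0.197), and all 6 SZ-A mice exceeded the HFD mean. Srebf2 stood at 8.32 ± 2.20 and 5.98 ± 0.795 FPKM (0.44, SE 0.16, limma adjusted p = 0.214). Scap stood at 16.0 and 13.5 FPKM (0.25, SE 0.08, limma adjusted p = 0.175). Insig2 was 76.3 ± 32.5 FPKM in SZ-A and 71.5 ± 22.4 in HFD (0.04, SE 0.25, limma adjusted p = 0.957), a difference not detectable against the spread between mice. Stard4 had 0.77 (SE 0.39), Tmem97 0.20 (SE 0.11) and Mylip -0.13 (SE 0.15).

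The balance of the INSIG forms varied between mice and its range overlapped between all 3 groups. The ratio of Insig2 to Insig1 FPKM was 3.79 to 11.7 in 5 NC mice and 100 in NC5, 1.84 to 7.23 in HFD mice and 0.727 to 6.67 in SZ-A mice. NC5 combined the highest Insig2 (491 FPKM) with the lowest Insig1 (4.91 FPKM) of all 18 mice. SZ-A4 had the lowest ratio, through its Insig1 of 85.4 FPKM at an Insig2 of 62.0.

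**Figure D4:**
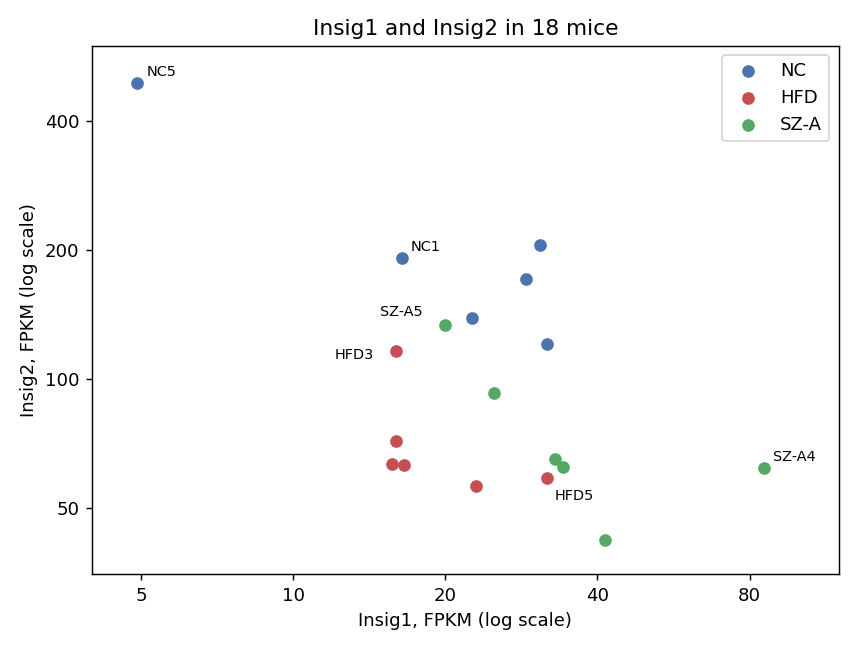
Insig1 (horizontal) and Insig2 (vertical) FPKM on log axes, a point per mouse. NC5 lies at 4.91 and 491 FPKM, SZ-A4 at 85.4 and 62.0, and all 6 HFD mice lie below all 6 NC mice on the Insig2 axis.

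Single mice differed more within SZ-A than within HFD. The median over the 25 tested members of the SD as a percentage of the mean was 42.5% in SZ-A mice (28.2% without SZ-A4), 16.7% in HFD mice and 26.1% in NC mice. SZ-A4 was the highest of its group in 21 of 25 members and of all 18 mice in 18 of 25. Its Sqle was 7.24 times and its Idi1 6.49 times the median of the other 5 SZ-A mice, while Scap, Insig2 and Mylip in this mouse were 0.966, 0.956 and 0.980 times that median. SZ-A4 lay above every HFD mouse in 18 of 18 tested enzymes, SZ-A1 and SZ-A2 in 15, SZ-A3 in 7, SZ-A6 in 1 and SZ-A5 in 0. Without SZ-A4, 23 of 25 members still had positive values against HFD, 11 had an unadjusted p under 0.05 and the median log2 fold change was 0.38. Outside the sterol genes, SZ-A4 had the highest Fasn (fatty acid synthase) of all 18 mice, 23.1 FPKM. It also had the highest hepatocyte marker sum in SZ-A, 55100 FPKM. Its Srebf1 (24.3 FPKM) and Scd1, a desaturase (592), were below those of SZ-A2 (38.5 and 1350).

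The low end was held by SZ-A5 and by NC1 and NC5. SZ-A5 was the lowest SZ-A mouse in 14 of 18 enzymes, and NC1 and NC5 were each the lowest NC mouse in 8 of 18. NC5 was also the highest NC mouse in 3 of 18 enzymes and in 6 of 25 members. It was the highest of all 18 mice in 4 members. SZ-A5, NC1 and NC5 also stood apart outside the sterol genes. Igfbp1, an insulin-repressed gene that rises on fasting, was 622 FPKM in NC5, 436 in SZ-A5 and 349 in NC1, against 9.45 to 169 in the other 15 mice. The fasting response genes as a list did not set NC5 apart. They summed to 5010 FPKM in NC5, within the 3670 to 6140 of NC mice, and Fgf21 (8.05) and Cpt1a (182) in NC5 were the lowest of NC. The sum was highest of NC in NC1 (6140) and highest of SZ-A in SZ-A5 (4030). Dbp, a clock output gene that swings with the time of day, was 0.990 FPKM in NC5 and 7.22 in SZ-A5, against 2.78 to 14.0 in the other NC mice and 29.4 to 47.1 in the other SZ-A mice. Krt19, a bile duct marker, was 8.45 FPKM in SZ-A5 and at most 0.989 in the other mice. The part of feeding state, time of day or other cells in the sterol gene values was not tested. A setting without NC5 and SZ-A5 was chosen after their values were seen. There, 17 of 25 members had an unadjusted p under 0.05 in SZ-A against HFD, all higher. The share of all genes at that p was not counted for this setting. Of the members 0 were called, against 0.303% of all genes. The median log2 fold change was 0.68 for the members and 0.03 for all genes. In HFD against NC, 9 of 25 members were then called, all lower, against 21.0% of all genes in either direction. Idi1 and Cyp51 were added.

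Fasting genes also differed between HFD and NC. Of 10 fasting response genes, 7 were called lower in HFD, against the 9.49% of all genes, and Igfbp1 had a log2 fold change of -2.16 (limma adjusted p = 0.0367). Of 10 tested clock genes, 2 were called higher and 1 lower (10.7% and 9.49% of all genes). Dbp was 24.8 FPKM in HFD and 7.42 in NC (log2 fold change 2.17, limma adjusted p = 0.00991), without overlap. Neither the fasting nor the clock list had a gene called in SZ-A against HFD, where 0.147% of all genes were called. The largest differences there were Pdk4 (-0.96), Fgf21 (0.68), Per1 (0.54) and Ciart (0.51).

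SZ-A mice were also compared with NC mice, which share neither diet nor treatment. Of 25 tested members, 2 were called, both lower in SZ-A, where 9.6% of all genes were called and 4.3% called lower. No member separated the groups fully, as 5.5% of all genes did. Insig2 was 76.3 ± 32.5 FPKM in SZ-A and 220 ± 137 in NC (log2 fold change -1.45, SE 0.33, limma adjusted p = 0.0155), with all 6 SZ-A mice below the NC mean and SZ-A5 (134) above NC4 (121). Hsd17b7 was 10.7 ± 4.03 and 16.7 ± 2.09 FPKM (log2 fold change -0.70, SE 0.19, limma adjusted p = 0.0358). That call was lost when any of NC2, NC3, NC4, NC6, SZ-A1, SZ-A2, SZ-A3 or SZ-A6 was left out (limma adjusted p = 0.0530 to 0.0813), with the log2 fold change between -0.72 and -0.63. SZ-A4 (18.3) was the single SZ-A mouse above the NC mean.

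The remaining members ran from -0.54 for Tm7sf2 to 1.28 for Mvd, and 16 of 25 were positive against 49.0% of all genes, with a median of 0.39. The median was 0.17 without SZ-A4, 0.21 without NC5, 0.22 without NC1, 0.24 without SZ-A2 and 0.17 with limma sample weights. Higher values with an unadjusted p under 0.05 were found in 5 of 25 members and in 13.6% of all genes. That count was 2 without NC1, NC5, SZ-A1 or SZ-A4, 3 without SZ-A2 and 10 without SZ-A5. Mvk, mevalonate kinase, was 4.46 ± 1.77 FPKM in SZ-A and 2.64 ± 0.390 in NC (0.66, SE 0.22, limma adjusted p = 0.0810), and all 6 SZ-A mice exceeded the NC mean. It was called with limma sample weights (limma adjusted p = 0.0498) and with all 18 mice in 1 fit (0.0349). In these settings 16.5% and 11.7% of all genes were called. Mvd stood at 3.72 and 1.38 FPKM (1.28, SE 0.45, limma adjusted p = 0.0927). Without SZ-A5, Mvk, Fdft1 and Stard4 were called higher as well (limma adjusted p = 0.0312, 0.0220 and 0.0454). Sqle and Cyp51 stood at 3.85 and 13.7 FPKM in SZ-A and at 2.13 and 9.18 in NC, and without SZ-A4 the Sqle value turned from 0.39 to -0.05.

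Other genes of the pathway, from a list of 20 with 16 tested, had a median log2 fold change of 0.07 in SZ-A against HFD. None was called, where 0.147% of all genes were. Npc1, the lysosomal cholesterol exporter, had a mean of 13.2 FPKM in SZ-A and 11.4 in HFD (log2 fold change 0.20, SE 0.09, limma adjusted p = 0.321). In HFD against NC, Aup1, a protein of the endoplasmic reticulum and lipid droplets that was named after its values were seen, was called lower without overlap, at 25.4 and 33.3 FPKM (log2 fold change -0.38, SE 0.08, limma adjusted p = 0.00374).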

How the data were processed

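Poly-A RNA from the livers of 18 mice was made into NEBNext Ultra libraries, a kit that does not mark strand, and sequenced by the authors. The submitters' processing notes name mm10, HISAT2 2.0.5 and featureCounts 1.5.0-p3, without roles. The authors deposited FPKM per gene, with gene length and position. FPKM times length gave whole fragments for 100% of values above 0 (tolerance 0.05 fragment), 17163191 to 20493907 per mouse, which limit precision for low genes by counting error only. Authors' DESeq2 results were not used.

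Groups came from the sample titles. Here log2(FPKM + 0.1) of genes with mean FPKM of at least 1 was tested with limma 3.58.1 (R 4.3.3; lmFit, eBayes with trend), each comparison on its own 12 mice. The pseudocount understates folds of low genes, and the p-values rest on the spread between mice. Adjustment was Benjamini-Hochberg over 10216 genes, and calls needed an adjusted p under 0.05 and a fold over 1.2. The script was tested on simulated data. The members and gene lists were chosen with earlier results of these data known. All 26 members are named. In each context list the tested genes with the largest absolute log2 fold change in SZ-A against HFD are named, a pair per list except where a result is not reported here, and clock, fasting and Srebf1 values may be given by mouse. Replicate numbers in the titles were not treated as pairs in the main test. Alternatives were other pseudocounts (1 and 0.01), filters, scalings, weights, voom on worked-back fragments, a replicate block and leaving out each mouse.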

Additional observations from a re-analysis of the deposited data

Results flagged for a closer look

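Of 78 groups of 6 mice (26 genes in 3 groups), 12 held a mouse that stood apart by Dixon's test on FPKM. Its threshold passes about 1 in 20 independent groups of normal values, a rate that does not apply to genes of the same mice. Of the 12, 7 were SZ-A4. In SZ-A4 these were Mvd at 9.81 FPKM (1.41 to 3.39 in the other 5 SZ-A mice), Idi1 at 20.8 (1.13 to 7.95), Fdps at 0.92 (0.039 to 0.253), Sqle at 12.2 (1.06 to 4.46), Cyp51 at 30.8 (6.88 to 14.5), Hsd17b7 at 18.3 (6.75 to 11.0) and Insig1 at 85.4 (at most 41.4). Mylip was 9.04 FPKM in SZ-A2, with 5.18 to 6.62 in the other SZ-A mice. In HFD, Pmvk was 3.80 FPKM in HFD6 (5.67 to 6.33 in the others), Mvd was 5.69 in HFD5 (1.08 to 1.92) and Insig2 was 116 in HFD3 (56.2 to 71.8). In NC, Insig2 was 491 FPKM in NC5 (121 to 206 in the others). The cause was not tested.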

How the results depend on the processing

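In SZ-A against HFD, 0 members were called under each alternative except limma sample weights. There it was 1 of 25 (Cyp51), and 2.28% of all genes were called. In HFD against NC, the 7 calls became 5 to 10, the 10 with limma sample weights, where 26.1% of all genes were called. Pmvk, Tm7sf2, Hsd17b7 and Insig2 were called in 25 of 25 alternatives and Sqle in the 24 of 24 that tested it. In SZ-A against NC, the 2 calls became 0 when low genes were kept, which raised the number of tests, 1 with FPKM scaled to a common total and 4 without NC5 and SZ-A5 (chosen after seeing the data), and leaving out each mouse gave 1 to 5. With the replicate number as a block there were 4, Fdft1 and Mvd being added, and 7 in HFD against NC. Deviations of same-numbered mice from their group means had correlations of -0.12 to 0.29 over the tested genes. Such values cannot tell whether a number stands for a shared batch. The common total changed the positive members from 23 to 20 of 25 in SZ-A against HFD and from 7 to 13 of 25 in HFD against NC. It moved the median of all genes to -0.15 and 0.15, and 23 and 8 of 25 members stood above that median with either scaling. Low counts limit Fdps and Mvd, which had 13 fragments in its lowest mouse. Both are overlapped by another annotated gene, over 89.7% and 100% of their length. How much of the low counts came from fragments left uncounted there was not tested. Members whose sign turned were not called on either side of 0. In HFD against NC, the sign turned with a common total for Hmgcs1 (0.035), Ggps1 (0.054), Lss (0.032), Ebp (0.11), Srebf2 (0.030) and Insig1 (0.18), with sample weights for Stard4 (-0.29), with voom on plain totals for Ggps1 (0.023), Ebp (0.073) and Insig1 (0.14) and without NC5 and SZ-A5 for Stard4 (-0.094) and Mylip (-0.0033). It also turned when single mice were left out, which gave -0.048 to 0.073 for Mvk, -0.061 to 0.11 for Mylip, -0.41 to 0.13 for Insig1 and -0.14 to 0.27 for Stard4. In SZ-A against HFD, the sign turned with a common total for Acat2 (-0.029), Ebp (-0.077) and Insig2 (-0.14), with sample weights for Insig2 (-0.096), with voom on plain totals for Ebp (-0.012) and Insig2 (-0.071) and without NC5 and SZ-A5 for Insig2 (-0.14). It also turned when single mice were left out, which gave -0.14 to 0.19 for Insig2. In SZ-A against NC, the sign turned with sample weights for Dhcr7 (0.035), with voom on plain totals for Dhcr7 (0.030) and without NC5 and SZ-A5 for Pmvk (0.10), Dhcr7 (0.15) and Tmem97 (0.043). It also turned when single mice were left out, which gave -0.032 to 0.053 for Ebp, -0.18 to 0.10 for Dhcr7, -0.098 to 0.014 for Tmem97, -0.048 to 0.63 for Sqle and -0.19 to 0.048 for Pmvk. The cause of these shifts was not tested.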

Other observations

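Genes of fatty acid synthesis and its regulator SREBP1 went different ways on the high-fat diet. Of 15 tested, 3 were called higher (10.7% of all genes) and 2 lower (9.49%) in HFD against NC. Srebf1 had a mean of 20.9 FPKM in HFD against 6.96 in NC, and was called there (log2 fold change 1.53, limma adjusted p = 0.00752). Its SZ-A mean was 22.4 FPKM. Among single mice it was 4.16 FPKM in SZ-A5 against 13.0 to 38.5 in the other SZ-A mice. None of the 15 was called in SZ-A against HFD, where 0.147% of all genes were called. Positive values were seen in 11 of 15, against 56.2% of all genes. The median log2 fold change was 0.31 there and 0.03 for all genes. An unadjusted p under 0.05 was reached by 4 higher, against 8.74% of all genes, and by 1 lower. Of the 15, 1 separated the groups fully, with SZ-A higher, as 1.28% of all genes did in either direction. Fasn, fatty acid synthase, had a log2 fold change of 0.73 (limma adjusted p = 0.185) and Scd1, the desaturase, -0.64 (0.768).

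Genes of sterol efflux under LXR gave 3 of 7 called higher in HFD against NC, where 10.7% of all genes were called higher. None was called in SZ-A against HFD, where 0.147% of all genes were called. Abcg1 (-0.55, limma adjusted p = 0.147) and Abca1 (-0.25, 0.330), both lipid exporters, had the largest differences there. Of 5 genes of bile acid synthesis, 1 was called higher and 1 lower in HFD against NC (10.7% and 9.49% of all genes). Cyp8b1, which makes cholic acid, was 532 FPKM in NC and 172 in HFD (log2 fold change -1.71, limma adjusted p = 0.000250), without overlap. Cyp7b1, an oxysterol hydroxylase, was 53.3 FPKM in HFD and 127 in SZ-A (1.2, limma adjusted p = 0.243), and SZ-A5 held the highest value, 283.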
